A study of Gallus gallus with 20 samples.

Results

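BTK, SYK, LYN, INPP5D, DOK1, PTPRC, PTPN6, PLCG2 and BLNK encode kinases, phosphatases, adaptors and a phospholipase that act directly beneath the receptors of white blood cells. The genes were taken by symbol from the gene rows of the deposited files, and all 9 were found among the 17108 genes listed for each library. RNA was measured in male Ross 708 broiler chickens, a meat breed, at post-hatch day 35. The birds ate an L-methionine-deficient diet or a control diet with L-methionine between weeks 3 and 5 of age. The 4 groups were liver on the deficient diet, liver on the control diet, pectoralis major (the breast muscle) on the deficient diet and pectoralis major on the control diet. Each group held 5 libraries, and the labels give 5 deficient and 5 control birds. The labels do not link a breast library to the liver library of the same bird.

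When an antigen or Fc receptor is engaged, the Src family kinase LYN phosphorylates tyrosines in the receptor's cytoplasmic ITAM motifs, and SYK docks there and becomes active. SYK phosphorylates the adaptor BLNK, which brings BTK to the phospholipase PLCG2, whose products release calcium and activate protein kinase C. PTPRC (CD45) removes an inhibitory phosphate from Src family kinases, while PTPN6 (SHP-1), INPP5D (SHIP1) and DOK1 restrain the signal. B cells and myeloid cells such as macrophages use most of these proteins, and the chicken B cell line DT40 is a classical system in which several of the genes were knocked out.

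The values are FPKM, counts of mapped fragments divided by transcript length and by the number of fragments mapped, as the authors deposited them, here scaled between the libraries of a tissue. Since FPKM is per length, levels can be compared between genes. Differences and their tests are on the log2(scaled FPKM + 1) scale, where the added 1 shrinks the change of weakly expressed genes. No read counts were given, so the depth is unknown as a number of reads. Deposited coverage times transcript length came to between 1.40 and 2.75 gigabases per library. In breast, the scale factors were 0.768 to 0.989 in the deficient libraries and 1.02 to 1.27 in the control libraries, so they did not overlap. The summed myocyte markers and the summed hepatocyte markers were highest in the tissue of the label. Of the hepatocyte markers, APOA1 was also high in breast, at 690 to 2590 scaled FPKM in deficient and 1842 to 3119 in control breast. CPS1 was low in liver, at 0.154 to 0.648 in deficient and 0.319 to 0.825 in control liver. In liver control 1 the summed scaled FPKM of the myocyte markers was 433, against a median of 2.09 over the control livers. Mitochondrial genes made up 36.1% of the FPKM sum in liver deficient 1 and 63.1% in liver control 4, so results that rest on liver are also given without these libraries. Apart from birds, nothing in the labels describes a batch.

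Apart from DOK1, the genes lie on different chromosomes of the galGal4 assembly. LYN is on chromosome 2 at 110831286 to 110878413, SYK on chromosome Z at 43922918 to 43975109, and BTK on chromosome 4 at 2006951 to 2017876. BLNK is on chromosome 6 at 20638214 to 20730717 and PLCG2 on chromosome 11 at 15140810 to 15193158. PTPRC is on chromosome 8 at 2019147 to 2076592, PTPN6 on chromosome 1 at 76818704 to 76828141 and INPP5D on chromosome 9 at 635538 to 681983. DOK1 is on a scaffold outside the chromosomes. These are whole gene spans, and the values count the annotated transcripts of the gene.

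All 9 genes were lower in breast muscle of deficient birds than in breast muscle of control birds. Each was called at an adjusted p under 0.05 in limma, and in each the highest deficient library lay below the lowest control library. Over the 10182 genes tested in breast, 13.9% were called lower and 14.1% higher, and every deficient library lay below every control library for 9.45%. The 9 genes were chosen with earlier results of these data known, so these shares and those below are no test of the set. The median log2 difference was -0.99 over the 9 genes and 0.02 over all genes tested. In bulk tissue, fewer white blood cells and less of each transcript per cell cannot be told apart. The group means of scaled FPKM in deficient breast were between 51.1% (BLNK) and 66.8% (SYK) below those in control breast.

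LYN, the Src family kinase at the start of the cascade, had 9.79, 7.52, 7.86, 7.41 and 17.6 scaled FPKM in the deficient breast libraries 1 to 5. The control breast libraries 1 to 5 had 20.4, 25.1, 20, 23 and 19.3. Deficient library 5 stood close to the lowest control library, and the other 4 deficient libraries were all under 10. LYN fell by 1.10 on the log2 scale (SE 0.20, limma adjusted p = 0.00412), with a 95% interval of the difference of -1.54 to -0.65.

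SYK, which binds phosphorylated ITAMs through its SH2 domains, had 0.784, 1.00, 0.879, 0.432 and 1.48 scaled FPKM in the deficient breast libraries and 2.68, 3.31, 2.62, 2.60 and 2.54 in the control breast libraries. The control libraries lay close together, with library 2 above the others. SYK fell by 0.99 on the log2 scale (SE 0.14, limma adjusted p = 0.00157). On the linear scale SYK showed the largest fall of the 9, with a control mean 3.01 times the deficient mean. With a pseudocount of 0.1 its log2 difference was -1.57.

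BTK, the Tec family kinase that activates PLCG2, had 2.98, 2.97, 2.43, 3.35 and 5.73 scaled FPKM in the deficient breast libraries and 8.43, 9.60, 8.56, 10.4 and 7.09 in the control breast libraries. Deficient library 5 was the nearest to the controls here too. BTK fell by 1.16 on the log2 scale (SE 0.17, limma adjusted p = 0.00166).

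BLNK, the adaptor that joins SYK to BTK and PLCG2, had 2.06, 2.21, 0.766, 1.16 and 2.25 scaled FPKM in the deficient breast libraries and 3.07, 3.74, 3.79, 3.75 and 2.91 in the control breast libraries. Deficient libraries 3 and 4 were well below the other deficient libraries. BLNK fell by 0.76 on the log2 scale (SE 0.17, limma adjusted p = 0.0101).

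PLCG2, the phospholipase that makes the calcium-releasing messenger, was the lowest of the 9 in breast. It had 0.639, 0.630, 0.533, 0.995 and 1.10 scaled FPKM in the deficient breast libraries and 2.31, 1.97, 1.59, 1.48 and 1.15 in the control breast libraries. Deficient library 5 and control library 5 differed little, so the gap between the groups was narrow. On the log2 scale PLCG2 fell by 0.60 (SE 0.14, limma adjusted p = 0.0129), the smallest fall of the 9. The added 1 weighs on this rank, since PLCG2 was the lowest gene. On the linear scale its deficient mean was 54% lower, against 53.4% for LYN and 51.1% for BLNK. With a pseudocount of 0.1 its log2 difference was -1.04, still the smallest but close to the -1.09 of BLNK. The means of SYK and PLCG2 in deficient breast, 0.914 and 0.780, were below the filter of 1, so both entered the test through the control libraries; without a filter all 9 genes were called as well.

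PTPRC, the transmembrane phosphatase common to white blood cells, had 4.15, 3.37, 2.60, 3.96 and 6.57 scaled FPKM in the deficient breast libraries and 10.6, 12.4, 11.1, 8.26 and 9.81 in the control breast libraries. The lowest control value, in library 4, was above the highest deficient value, in library 5. PTPRC fell by 1.19 on the log2 scale (SE 0.18, limma adjusted p = 0.00176).

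PTPN6, the SH2-domain tyrosine phosphatase recruited by inhibitory receptors, had 6.17, 6.97, 5.27, 5.74 and 11.2 scaled FPKM in the deficient breast libraries and 15.9, 21.1, 19.0, 16.2 and 13.4 in the control breast libraries. Again deficient library 5 was the closest to the controls. PTPN6 fell by 1.19 on the log2 scale (SE 0.18, limma adjusted p = 0.00188).

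INPP5D, the inositol phosphatase that lowers the lipid signal to which BTK binds, had 2.12, 2.34, 1.73, 1.80 and 3.16 scaled FPKM in the deficient breast libraries and 4.75, 6.92, 5.56, 5.18 and 4.43 in the control breast libraries. On the log2 scale INPP5D fell by 0.98 (SE 0.14, limma adjusted p = 0.00157). DOK1, an adaptor that recruits a Ras GTPase-activating protein, had 1.80, 2.45, 1.40, 1.66 and 2.66 scaled FPKM in the deficient breast libraries and 4.29, 5.32, 4.16, 3.76 and 4.43 in the control breast libraries. DOK1 fell by 0.86 on the log2 scale (SE 0.13, limma adjusted p = 0.00178). Activating and restraining members were thus both lower in deficient breast. The authors deposited confidence intervals for each library's FPKM before the scaling used here. Unscaled, the intervals of the deficient and the control libraries were apart for SYK, INPP5D and PTPRC, and met for the other 6 genes. For PTPRC the highest deficient bound was 7.86 and the lowest control bound 8.25. The PTPRC intervals in breast held their own estimates, but in liver some did not, such as 17.1 to 19.7 for 16.8 in control 5. The scale factors differed by diet in breast, and the intervals were not compared after scaling.

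**Figure D1:**
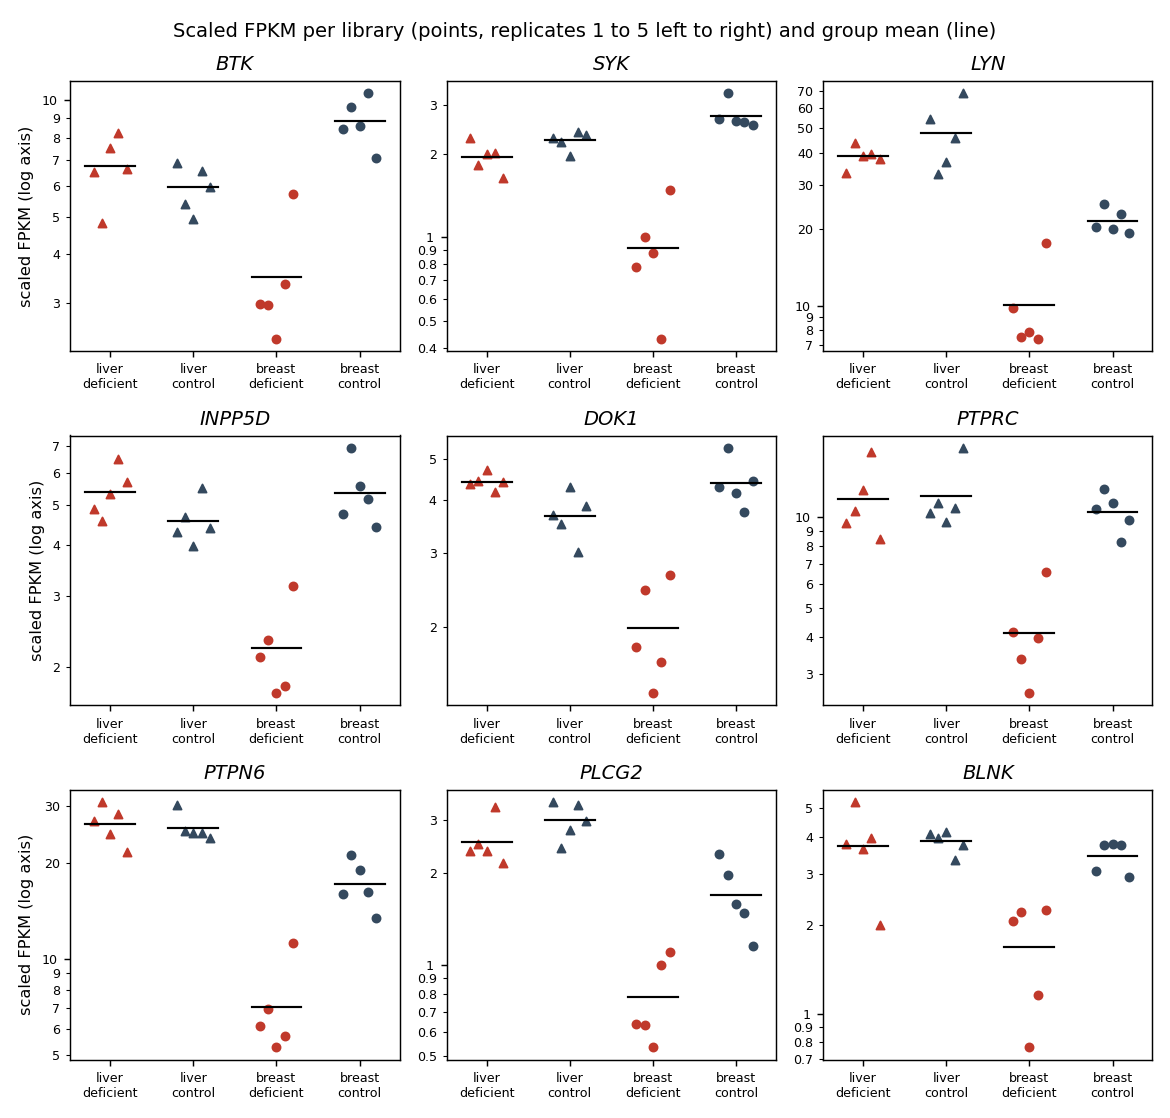
Scaled FPKM of each gene (log axis, own range per panel) in the 5 libraries of each group, as points, with the group mean as a line; triangles are liver, circles are breast, red is the deficient diet and dark blue the control diet. In breast the deficient points lie below all control points for all 9 genes (for LYN 7.41 to 17.6 against 19.3 to 25.1), while in liver the diets overlap for each gene.

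The same libraries were high or low for most of the genes. Breast deficient 5 was the highest deficient breast library for 9 of 9 genes, and breast deficient 3 was the lowest for 7. Breast control 2 was the highest control breast library for 6 of 9 genes, and breast control 5 was the lowest for 7. The same libraries were at the ends in the number of all genes at an unscaled FPKM of 1 or more. Breast deficient 5 had the most of the deficient breast libraries, 9962, and breast deficient 3 the fewest, 9143. Among the control breast libraries, control 2 had the most, 10589, and control 5 the fewest, 10102. How far these library-wide counts go with the levels of the 9 genes was not tested. Without breast deficient 5 the log2 difference of LYN was -1.30 and that of BTK -1.32. Over the 36 pairs of genes, the median Pearson correlation across the 10 breast libraries was 0.93, with a range of 0.75 to 0.99. After the mean of each diet was subtracted it was 0.72, with a range of 0.20 to 0.96. These correlations share libraries and scaling and are given as a description.

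The genes were also set against PTPRC. With each gene divided by PTPRC in the same library, LYN averaged 2.43 ± 0.44 in deficient breast and 2.1 ± 0.391 in control breast (SD, n = 5 each). BTK averaged 0.851 ± 0.0808 times PTPRC in deficient breast and 0.865 ± 0.222 in control breast (SD, n = 5 each), and SYK 0.232 ± 0.0903 in deficient breast and 0.266 ± 0.0294 in control breast. For BLNK the mean ratio was 0.416 ± 0.158 in deficient breast and 0.337 ± 0.0684 in control breast, and for DOK1 it was 0.505 ± 0.136 in deficient breast and 0.423 ± 0.0338 in control breast. PLCG2 averaged 0.193 ± 0.0379 times PTPRC in deficient breast and 0.163 ± 0.0384 in control breast. The ranges of all 8 such ratios overlapped between the diets, in breast and in liver. These ratios were not tested, and overlap does not show that they were equal.

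**Figure D2:**
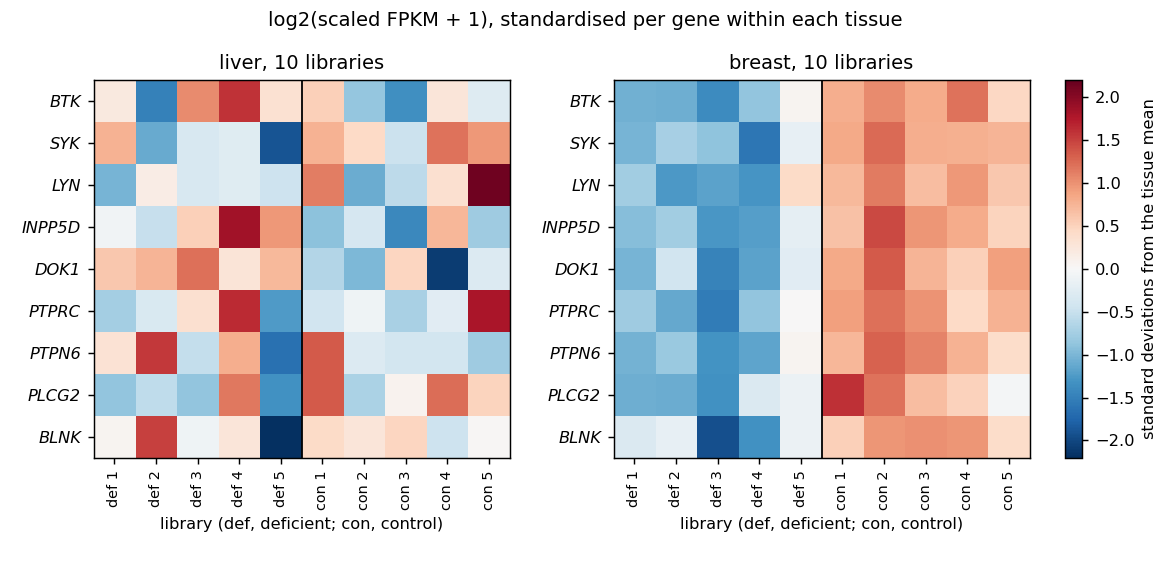
Log2(scaled FPKM + 1) of each gene, in standard deviations from its mean over the 10 libraries of the tissue; columns are libraries (deficient left of the line, control right), red is above and blue below the mean. In breast most deficient values lie below the gene's mean and most control values above it. Deficient 5 is the highest deficient library for 9 of 9 genes, and its LYN lies above the mean, as in the controls. Control 2 is the highest control library for 6 of 9 genes. In liver the colours are mixed in both diets.

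In liver none of the 9 genes was called between the diets, and the groups overlapped for each. None of the 10189 genes tested in liver was called (0%), while 849 (8.33%) had an unadjusted p under 0.05 in limma. DOK1 had the smallest unadjusted p of the 9. It had 4.36, 4.44, 4.72, 4.18 and 4.42 scaled FPKM in the deficient livers and 3.69, 3.52, 4.29, 3.02 and 3.87 in the control livers. The log2 difference of DOK1 was 0.22 (SE 0.08, limma unadjusted p = 0.0266, adjusted p = 0.500), and 1 control library lay inside the deficient range.

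The estimates for the other genes in liver were small in both directions. LYN had 33.4, 43.8, 38.9, 39.7 and 38.0 scaled FPKM in the deficient livers and 54.5, 32.9, 37.0, 45.8 and 68.8 in the control livers, so the control livers spread more widely and held the deficient range. The log2 difference of LYN was -0.25 (SE 0.19, limma adjusted p = 0.799). For PTPRC the values were 9.53, 10.5, 12.3, 16.4 and 8.48 in the deficient livers and 10.3, 11.1, 9.63, 10.7 and 17.0 in the control livers. Each diet had 1 library well above its other 4, and the log2 difference of PTPRC was -0.04 (SE 0.19, limma adjusted p = 0.972), with a 95% interval of -0.45 to 0.37. The log2 difference was 0.20 for INPP5D, 0.15 for BTK, 0.03 for PTPN6, -0.08 for BLNK, -0.14 for SYK and -0.18 for PLCG2. The unadjusted 95% intervals of these 6 genes all held 0 and reached no further than 0.44 upward and -0.44 downward. A miss of the threshold does not show that the levels were equal. Without liver control 4 and liver deficient 1, and also without liver control 1, none of the 9 was called either.

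The genes did not move as a block in liver. The median correlation over the 36 pairs was 0.11 across the 10 liver libraries, with a range of -0.69 to 0.79. Liver deficient 4 was the highest deficient liver for 4 genes and liver deficient 5 the lowest for 5. Liver control 5 had the highest control values of LYN and PTPRC, and liver control 1 those of BTK, PTPN6 and PLCG2.

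The difference between the tissues in diet effect was tested in a joint fit of the 20 libraries, as the liver effect minus the breast effect. A positive value means that the deficient minus control difference was higher in liver than in breast. For 6 of the 9 genes this difference was called, all higher. Over the 9147 genes tested, 4.66% were called higher and 5.42% lower. The median difference was 1.05 over the 9 genes and -0.05 over all genes tested. The breast effect that is part of this contrast is the one given above, so its direction is not further evidence.

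Among the kinases, BTK had a log2 difference between the effects of 1.27 (SE 0.22, limma adjusted p = 0.00292) and SYK of 0.82 (SE 0.16, limma adjusted p = 0.00467). LYN, at 0.81 (SE 0.28), missed the threshold with a limma adjusted p of 0.0730. It was called in 2 of the 20 removals of a single library, without breast deficient 5 (adjusted p = 0.00680) and without liver control 5 (adjusted p = 0.0294). In the other removals LYN was not called, and its adjusted p reached 0.136. With library weights in limma, LYN was called too (difference 0.91, adjusted p = 0.0193). For the adaptor BLNK the difference was 0.66 (SE 0.25, limma adjusted p = 0.0977). BLNK was called in 1 of the 20 removals, without liver deficient 5 (adjusted p = 0.0262), and its adjusted p reached 0.169 in the others. For PLCG2 the difference was 0.39 (SE 0.18, limma adjusted p = 0.163), with an unadjusted 95% interval of 0.02 to 0.76. The phosphatases and the adaptor DOK1 were all called. INPP5D had a difference of 1.15 (SE 0.17, limma adjusted p = 0.00140) and DOK1 of 1.05 (SE 0.15, limma adjusted p = 0.00140). PTPN6 had 1.19 (SE 0.22, limma adjusted p = 0.00384) and PTPRC 1.11 (SE 0.26, limma adjusted p = 0.0138). PTPRC was no longer called when liver control 1, liver control 4 and liver deficient 1 were all left out (difference 1.09, adjusted p = 0.0552).

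**Figure D3:**
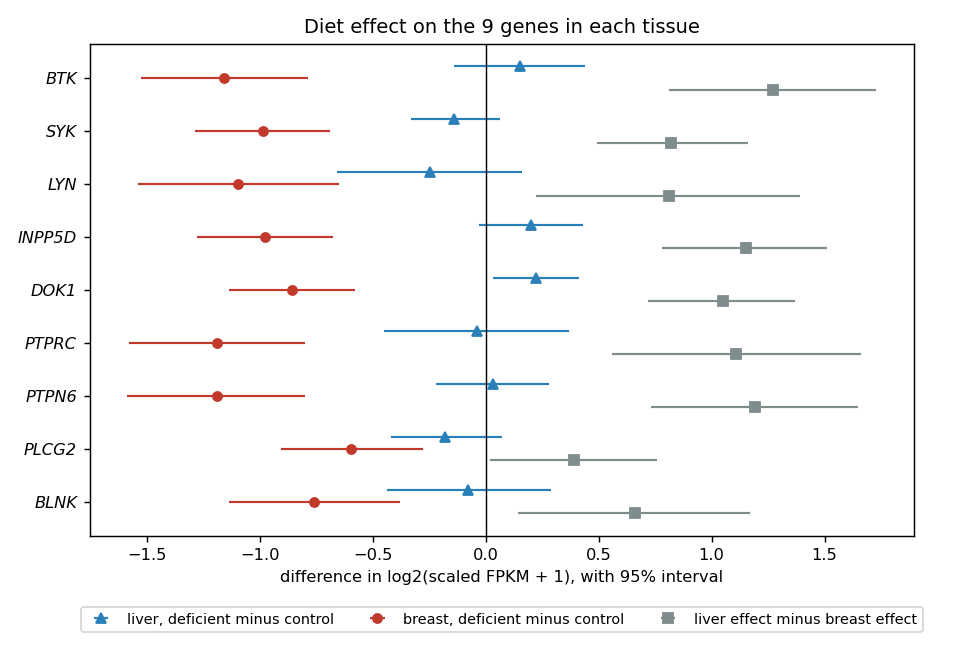
Diet effect on each gene as the difference in log2(scaled FPKM + 1), deficient minus control, in liver (blue triangles) and in breast (red circles), and the liver effect minus the breast effect (grey squares); bars are unadjusted 95% intervals from limma. The breast effects lie between -1.19 and -0.60, the liver effects between -0.25 and 0.22, and the differences between 0.39 and 1.27.

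The order of the genes by level was similar in the 4 groups. LYN had the highest median scaled FPKM in each, followed by PTPN6, PTPRC, BTK and INPP5D. The medians of LYN were 38.9 in deficient liver, 45.8 in control liver, 7.86 in deficient breast and 20.4 in control breast. PTPN6 had medians of 26.9 in deficient liver, 24.8 in control liver, 6.17 in deficient breast and 16.2 in control breast. LYN was above PTPN6 in all 5 libraries of each group, and their ranges over libraries were apart in liver and overlapped in breast. In liver, LYN made up 38.2% of the summed FPKM of the 9 genes on the deficient diet and 44.0% on the control diet. In breast the share of LYN was 31.0% on the deficient diet and 28.5% on the control diet. INPP5D, BLNK and DOK1 followed each other, and the range of each overlapped that of its neighbours among them in each group. SYK and PLCG2 were the lowest 2 in each group, with SYK below PLCG2 in all 5 libraries of each liver group and above it in all 5 control breast and 4 of 5 deficient breast libraries.

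Set against breast of the same diet, liver had more of all 9 transcripts in deficient birds. Over the 11216 genes tested there, 37.4% were called higher in liver. The largest log2 differences were those of LYN, 1.91 (SE 0.20, limma adjusted p = 4.56e-08), and PTPN6, 1.79 (SE 0.16, limma adjusted p = 3.00e-09). PTPRC differed by 1.28, INPP5D and PLCG2 by 0.99 each, DOK1 by 0.87, BLNK by 0.81, BTK by 0.80 and SYK by 0.64. The largest limma adjusted p of these was 0.000357, for BLNK. Without liver control 4 and liver deficient 1, and also without liver control 1, all 9 were called too.

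In control birds the tissues were closer. On that diet 3 of the 9 genes were called higher in liver, against 35.8% of all genes tested. They were LYN with a log2 difference of 1.10 (SE 0.20, limma adjusted p = 6.18e-05), PTPN6 with 0.60 (SE 0.16, limma adjusted p = 0.00194) and PLCG2 with 0.60 (SE 0.12, limma adjusted p = 0.000279). BTK was called lower in liver, at -0.47 (SE 0.16, limma adjusted p = 0.0120), against 34.3% of all genes tested. PTPRC (0.17), BLNK (0.16), INPP5D (-0.16), SYK (-0.18) and DOK1 (-0.18) were not called. Without liver control 4 and liver deficient 1, and also without liver control 1, the same genes were called. SYK and DOK1 were called lower in liver when the values were unscaled or scaled by the upper quartile, DOK1 also after quantile normalization (-0.25, adjusted p = 0.0324), and PTPN6 was not called when they were unscaled. The contrasts for the 2 diets rest on the libraries already compared between diets, and the test of the difference between them is the joint fit above.

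**Figure D4:**
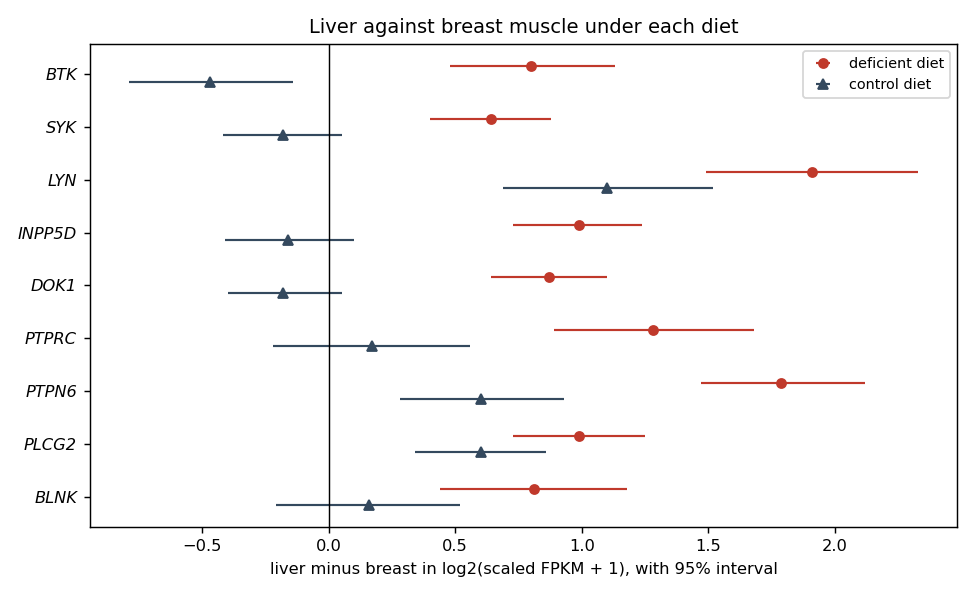
Liver minus breast in log2(scaled FPKM + 1) for each gene, on the deficient diet (red circles) and on the control diet (dark triangles), with unadjusted 95% intervals from limma. On the deficient diet all 9 differences lie between 0.64 and 1.91; on the control diet they lie between -0.47 and 1.10, and 5 of the intervals include 0.

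SYK and BLNK each had 2 annotated transcripts and the other 7 genes had 1. For SYK, the transcript of 4630 nt made up 35.1% ± 41.3 of the deposited FPKM in deficient breast and 52.1% ± 8.08 in control breast (SD, n = 5 each). In deficient breast its share ran between 0.00392% and 100%, so at these low levels the split was not stable between libraries. For BLNK, the transcript of 2397 nt made up 87.1% ± 10.4 in deficient breast and 78.3% ± 10.1 in control breast (SD, n = 5 each), and the ranges overlapped. Both transcripts of each gene had lower mean FPKM in deficient breast. For the longer SYK transcript the means were 0.259 ± 0.281 FPKM in deficient breast and 1.66 ± 0.628 in control breast (SD, n = 5 each). For the longer BLNK transcript they were 1.31 ± 0.567 FPKM in deficient breast and 3.09 ± 0.816 in control breast. These shares were not tested.

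Markers of white blood cells moved with the 9 genes in breast. The marker lists were chosen with earlier results of these data known, so their counts are a description. Over the 10182 genes tested in breast, 13.9% were called lower and 14.1% higher. Of 20 listed macrophage markers, 11 were in the files, 10 of the 11 tested were called lower in deficient breast, and their summed scaled FPKM was 182 to 298 in deficient breast and 467 to 543 in control breast. Heterophils are the avian counterpart of neutrophils; 6 of their 7 tested markers were called lower, and their sum was 10.6 to 28.5 in deficient breast and 56.9 to 103 in control breast. For B cells, 10 of 18 listed markers were in the files and 3 were tested. All 3 were called lower, and the sum over the 10 was 7.30 to 17.8 in deficient breast and 20.3 to 40.9 in control breast. The tested markers were IGJ, CD40 and EBF1. IGJ was at 2.1 to 12.5 in deficient breast and 10.4 to 31.9 in control breast. CD40 was at 2.42 to 5.81 in deficient breast and 5.95 to 7.15 in control breast. EBF1 was at 0.653 to 1.06 in deficient breast and 1.64 to 3.1 in control breast. In liver EBF1 was near 0, at 0 to 0.177 on the deficient diet and 0 to 0.184 on the control diet. The B cell factor PAX5 and VPREB3 were listed at 0 in all deficient breast libraries, TNFRSF13C was listed at 0 in all control breast libraries, and the B cell receptor chain CD79B was at 0.120 to 0.315 scaled FPKM in deficient breast and 0.297 to 0.796 in control breast. For T and NK cells, 3 of 8 tested markers were called lower, and the sums overlapped, at 28.1 to 42.4 in deficient breast and 35.1 to 67.0 in control breast. None of the macrophage and heterophil markers was at 0 in all libraries of a breast group. The heterophil marker MPO was near 0 all the same, at 0 to 0.219 in deficient breast and 0 to 0.457 in control breast. In control breast PAX5 was at 0 to 0.113 and VPREB3 at 0 to 0.172.

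Endothelial markers had 1 of 8 called lower, against 13.9% of all genes tested in breast. Their sums were 58.0 to 79.7 in deficient breast and 56.8 to 75.8 in control breast. For thrombocytes 2 of 3 tested markers were called lower, and the sums overlapped. F13A1 made up most of these sums, at 22.8 to 43.2 in deficient breast and 25.9 to 66.4 in control breast. ITGB3 was at 0.654 to 1.82 in deficient breast and 2.05 to 2.48 in control breast. TBXAS1 was at 0.169 to 1.1 in deficient breast and 1.26 to 3.21 in control breast. The remaining thrombocyte markers stayed below 1 in breast, and their ranges overlapped. For fibroblasts 3 of 8 were called lower, and the sums were 1155 to 1868 in deficient breast and 1810 to 2436 in control breast. Of the myocyte markers 6 of 7 were called higher, opposite in direction to the 9 genes, and the sums of these 7 did not overlap, at 31319 to 51504 in deficient breast and 17943 to 29342 in control breast. None of the erythroid markers was called in breast, and 2 of 5 hepatocyte markers were called lower there. In liver no marker of any of the 10 lists was called between the diets, and neither was any of the 10189 genes tested there (0%). The part of these cell types in the breast result was not tested.

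The surrounding pathway was described with 5 lists that hold none of the 9 genes. These lists too were chosen with earlier results of these data known, so their counts are a description. Together 94 of their genes were tested in breast, of which 50 were called lower and 7 higher. Over all genes tested in breast, 13.9% were called lower and 14.1% higher. The median log2 difference was -0.45 over the 94 genes and 0.02 over all genes tested. In liver 94 were tested and none was called, and neither was any of the 10189 genes tested there (0%). The joint fit tested 88, of which 25 were called with a higher difference and 1 with a lower one. Over all genes in that fit, 4.66% were called higher and 5.42% lower.

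Of the receptors and ITAM chains, 8 of 11 tested gene entries were called lower in deficient breast and none higher, with a median of -0.77. SIRPA was counted through separate gene entries, at -0.77 and -0.84, and both were called lower. ITGB2, the shared beta chain of the leukocyte integrins, averaged 6.28 ± 2.85 scaled FPKM in deficient breast and 19.1 ± 3.10 in control breast (SD, n = 5 each; log2 difference -1.52, limma adjusted p = 0.00154). IL2RG, the common cytokine receptor gamma chain, differed by -1.28, the inhibitory receptor CD300A by -1.23 and CSF1R, the macrophage growth factor receptor, by -0.82. Of the ITAM chains tested, CD3E was called lower (-0.60, limma adjusted p = 0.0279). CD3D (-0.50, limma adjusted p = 0.0780) and CD247 (-0.03, limma adjusted p = 0.856) were not called. CSF1R is also in the macrophage list, and CD3E, CD3D and CD247 are also in the T and NK cell list.

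Of the other Src, Csk, Syk and Tec family kinases, 4 of 9 were called lower and none higher, with a median of -0.39. MATK, which phosphorylates the inhibitory tyrosine of Src kinases, averaged 0.862 ± 0.225 scaled FPKM in deficient breast and 2.55 ± 0.291 in control breast (SD, n = 5 each; log2 difference -0.93, limma adjusted p = 0.00115). The mean of MATK in deficient breast was below the filter of 1, so MATK entered the test through the control libraries. SRC differed by -0.69, FYN by -0.61 and FGR, a Src family kinase of myeloid cells, by -0.47. FGR averaged 9.53 ± 1.56 scaled FPKM in deficient breast and 13.6 ± 1.35 in control breast.

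Of the adaptors and exchange factors, 10 of 18 were called lower and 2 higher, with a median of -0.43. FYB, an adaptor of T cells and myeloid cells, averaged 2.40 ± 0.94 scaled FPKM in deficient breast and 6.35 ± 0.695 in control breast (SD, n = 5 each; log2 difference -1.15, limma adjusted p = 0.00162). ADAP1, an Arf GTPase-activating protein, differed by -0.78, the phosphoinositide 3-kinase adaptor PIK3AP1 by -0.60 and GRB2, which links receptors to Ras, by -0.54. The mean of ADAP1 in deficient breast, 0.737, was below the filter of 1, so ADAP1 entered the test through the control libraries. The genes called higher were the exchange factor SOS1 (0.41) and the adaptor CRKL (0.43), named after their values were seen.

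Of the genes listed as negative regulators, 13 of 21 were called lower and 1 higher, with a median of -0.48. That heading is the name of the list, and not every gene under it is known to restrain leukocyte receptors. PSTPIP1, a cytoskeletal adaptor, averaged 1.79 ± 0.47 scaled FPKM in deficient breast and 4.79 ± 0.359 in control breast (SD, n = 5 each; log2 difference -1.07, limma adjusted p = 0.000819). The Src-like adaptor SLA differed by -1.40, the ubiquitin ligase CBL by -0.73 and the receptor phosphatase PTPRA by -0.66. The gene called higher was DOK5 (0.73), a relative of DOK1, named after its value was seen.

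Of the downstream lipid, calcium and NF-kB steps, 15 of 35 were called lower and 4 higher, with a median of -0.14. CARD9, which relays SYK-coupled receptors to NF-kB, averaged 2.16 ± 1.28 scaled FPKM in deficient breast and 6.50 ± 1.06 in control breast (SD, n = 5 each; log2 difference -1.31, limma adjusted p = 0.00229). The kinase subunits PIK3CB and PIK3R5 differed by -0.82 and -0.68, and the NF-kB family member REL by -0.53. The genes called higher, named after their values were seen, were the protein kinases C PRKCA (0.41) and PRKCQ (0.43), the calcium channel ORAI1 (0.51) and the transcription factor NFATC1 (0.59).

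**Figure D5:**
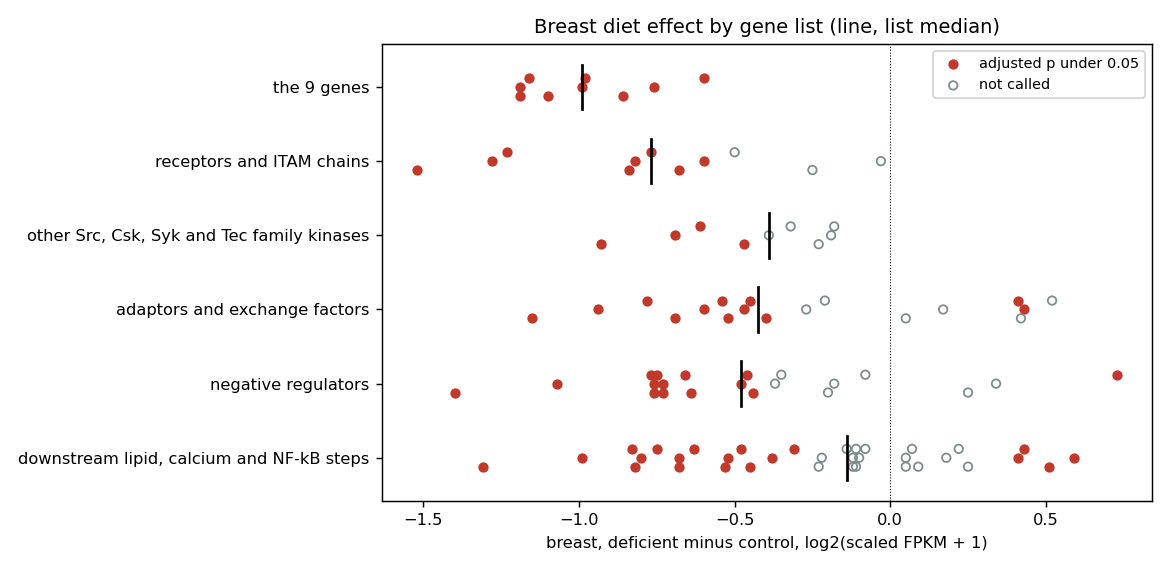
Difference in log2(scaled FPKM + 1) between deficient and control breast for the 9 genes and for the tested genes of 5 pathway lists; each point is a gene, filled where the limma adjusted p was under 0.05, and the vertical lines are medians. The medians are -0.99 for the 9 genes and -0.77, -0.39, -0.43, -0.48 and -0.14 for the lists from top to bottom.

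The genes most like the set were found by the Pearson correlation with the mean of the 9 standardised genes over the 10 libraries of a tissue, as a description. In breast they were NES (0.995), PINLYP (0.995), TLR2-1 (0.994), NCOA7 (0.993) and GAB3 (0.992) among the 10182 genes tested. The difference by diet is part of these correlations. NES averaged 1.60 ± 0.992 scaled FPKM in deficient breast and 7.58 ± 1.91 in control breast (SD, n = 5 each), and TLR2-1, a Toll-like receptor gene, 4.61 ± 1.87 in deficient breast and 12.9 ± 1.73 in control breast. In liver they were LBR (0.928), BDKRB1 (0.897), MAP2K3 (0.882), PIP4K2A (0.881) and RAC2 (0.873) among the 10189 genes tested. The median correlation between pairs of the 9 was only 0.11 in liver, so their mean there was not a profile that they shared. The highest of 10189 correlations over 10 libraries are high by selection, and none was tested. None of these 10 genes was among the nearest 5 in both tissues. NES could not be, since it was below the filter of 1 in liver and not ranked there. Its means were 0.146 scaled FPKM in deficient liver and 0.144 in control liver. RAC2 is in the list of downstream steps and was called lower in deficient breast, at -0.99 (SE 0.18, limma adjusted p = 0.00347).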

How the data were processed

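RNA from Trizol extracts of frozen pectoralis major and liver was made into libraries with an Illumina TruSeq kit using 1 ug of total RNA, per the labels. The authors deposited FPKM per gene and per isoform for 17108 genes and 17942 transcripts of galGal4, with confidence bounds. The isoform files add transcript lengths and coverage, a depth signal per transcript, per the file headers. Cuffdiff 2.1.1, Cufflinks 2.1.1, TopHat2 2.0.9 and Bowtie 1.0.0 appear, per the submitters' processing notes, with no role stated. No count model was used, since no counts were given.

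FPKM were scaled by median ratio within each tissue, or over the 20 libraries for contrasts that use both tissues. Estimates marked as failed (ALB in liver; GAPDH, ACTA1 and ACTN1 in breast) were left out of that tissue, in tests and in marker sums. Genes whose scaled FPKM averaged 1 or more (in the tissue, in both tissues for the joint test of diet effects, in either for liver against breast) were fitted as log2(scaled FPKM + 1) in limma 3.58.1 under R 4.3.3 with a mean-variance trend. Tests were two-sided, and genes were called at an adjusted p under 0.05, by the Benjamini-Hochberg method across every gene in that fit. The procedure was tested on simulated data. The joint fit and the contrasts of liver against breast treat the libraries of the 2 tissues as separate birds. With the 5 deficient and 5 control birds of the labels for 20 libraries, the tissues would share birds. Such sharing was not modelled, so the p-values of these contrasts leave it out. The values of FPKM carry no counts, so no counting interval is given, and the number of libraries limits the precision.

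The 9 genes, the 5 pathway lists and the 10 cell type lists were chosen with earlier results of these data known. Named besides the 9 are the 4 genes of each pathway list with the smallest p in breast and the 5 genes per tissue with the highest correlation with the set. The pathway genes called higher in breast are named outside this rule, as chosen after their values were seen. So are SIRPA and the ITAM chains CD3E, CD3D and CD247. The alternatives tried were other scalings, pseudocounts, filters and thresholds, library weights, a replicate block and the removal of libraries. Sequences were not used here, and a planned count of promoter motifs was not run.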

Additional observations from a re-analysis of the deposited data

Results flagged for a closer look

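In 7 of 36 groups of 5 libraries, 1 library lay far from the other 4 by Dixon's criterion. Chance flags about 1 in 20 groups, and groups of different genes share libraries. Breast deficient 5 was the library concerned for 3 genes: BTK had 5.73 scaled FPKM there against 2.43 to 3.35 in the other deficient breast libraries, LYN 17.6 against 7.41 to 9.79, and PTPN6 11.2 against 5.27 to 6.97. In breast control 2, SYK had 3.31 against 2.54 to 2.68 in the other control breast libraries. In liver, PTPRC had 17.0 in control 5 against 9.63 to 11.1, PTPN6 had 30.2 in control 1 against 23.8 to 25.1, and PLCG2 had 3.32 in deficient 4 against 2.17 to 2.49.

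The diet effect differed between liver and breast, in the joint fit in limma, for 6 of the 9 genes. As the liver effect minus the breast effect on the log2 scale, the values were 1.27 for BTK, 0.82 for SYK, 1.15 for INPP5D, 1.05 for DOK1, 1.11 for PTPRC and 1.19 for PTPN6.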

How the results depend on the processing

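All 9 genes were called lower in deficient breast, in limma, under every scaling, pseudocount and variance model tried and without each library in turn. With a mean filter of 5, only 4 of the 9 were tested in breast, and 4 were called there and 3 in the joint fit; liver against deficient breast then had 5 called of 5 tested. At an adjusted p of 0.01, PLCG2 and BLNK were lost in breast. Without scaling, the median of all genes moved to -0.25 in breast, where the median of the 9 was -1.23, and to 0.30 for the tissue difference, where that of the 9 was 1.36. Of the called breast genes 50.5% were higher in the main analysis, 9.14% without scaling and 36.5% with upper quartile scaling; for the tissue difference the shares were 46.2%, 96.2% and 74.0%, and 62.6% with quantile normalization, and for liver over breast on the control diet 51.1% and 39.8% without scaling.

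Without scaling, LYN (1.2, adjusted p = 0.0156), BLNK (0.94, adjusted p = 0.0201) and PLCG2 (0.63, adjusted p = 0.0354) were called for the tissue difference too. On the control diet liver over breast was then -0.03 for PTPRC and -0.02 for BLNK, opposite in sign to the main values, and 0.39 for PTPN6, not called (adjusted p = 0.0741). The number of genes called in breast was 1031 at a threshold of 0.01, and in liver 2 without a filter, 1 with a filter of 5 and 1 at a threshold of 0.10. For the tissue difference it was 1871 without scaling, 176 at 0.01, 1510 at 0.10, 600 without liver control 4 and liver deficient 1, and 340 without liver control 1 as well. Leaving out each library gave 1839 (without breast control 2) to 3158 genes in breast, 0 to 11 in liver and 490 (without breast control 2) to 1273 (without breast deficient 5) for the tissue difference, with 6 to 7 of the 9 genes called for that difference. In liver, uncalled values near 0 changed sign: PTPRC was 0.00 without scaling, 0.10 with library weights and -0.17 to 0.09 without single libraries, PTPN6 -0.02 to 0.10 and BLNK -0.19 to 0.08 likewise. The list counts that moved for the tissue difference were all higher without scaling (9 receptors, 6 kinases, 9 adaptors, 14 negative regulators and 18 downstream genes called), as were the 8 other kinases called in breast. The causes were not tested.

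Replicate numbers were not stated to pair birds. The replicate block joins deficient and control libraries of the same number, so it is not a term per bird, and no such term was fitted. Same-numbered libraries had correlated deviations of -0.07 to 0.09 in breast, -0.20 to 0.06 in liver, 0.01 to 0.21 between tissues on the deficient diet and 0.06 to 0.18 on the control diet, where 4 of 5 correlated best with their own number on each diet. With the replicate block, 8 of the 9 genes and 2076 genes in all were called in breast, with PLCG2 at an adjusted p of 0.0509, 0 in liver and 6 of the 9 for the tissue difference; 1 of the other kinases was called for that difference.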
